A study of Mus musculus with 18 samples.

Results

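Lysosomal enzymes, lysosomal membrane proteins and the proton pump that acidifies the lysosome are described here through 34 genes, picked by symbol from the 53342 genes of a mouse RNA-seq table. All 34 symbols were found, each in a single row of the table. They comprise 7 proteases, 8 glycosidases and lipid hydrolases, 8 membrane proteins and cofactors, 10 proton pump subunits and the transcription factor Tfeb. The study transfected Neuro-2A cells (a mouse neuroblastoma line labelled neuron), BV-2 cells (microglia of the mouse, kept as an immortalised line) and primary mouse astrocytes with mimics of miR-99b-3p, miR-199a-3p and miR-140-5p. The mimics were given together in equal amounts at 25 nM for 24 h, and control cells were given a mimic of the worm microRNA cel-miR-67 at the same dose and time. There were 3 libraries for each arm and cell type, 18 in all, and no untransfected cells, so a higher level under the mix cannot be told apart from a lower level under the control mimic. All groups carried no genetic modification per the labels, and all received the same transfection reagent. Each cell type had its own medium and seeding density, which cannot be told apart from cell type. The labels do not say whether libraries of a group came from separate cultures, so p-values measure only the spread between these libraries, which may be technical.

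Lysosomes break down proteins, glycans and lipids with acid hydrolases that work at low pH. The vacuolar proton pump supplies that acidity: its V1 sector hydrolyses ATP in the cytosol and its V0 sector moves protons across the membrane. A chloride-proton exchanger encoded by Clcn7 works beside the pump and needs Ostm1 as its partner subunit, and loss of either gene in mice causes osteopetrosis with lysosomal storage in the nervous system. Lipa encodes the acid lipase that splits cholesteryl esters and triglycerides. Tfeb encodes a factor that drives many lysosomal genes through the palindrome TCACGTGA in their promoters. MicroRNAs lower their targets by pairing bases 2 to 8, the seed, with a complementary site in the 3′ UTR of a messenger RNA.

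Seeds and sites are shown first, for Ostm1, Ctsl, Lipa, Atp6v0a1 and Scarb2, the members that moved most in any cell type. These genes were picked by their changes in these data. Each held a site of the mix or of the control mimic, while Laptm4a, the next in size, held none. The mature sequences below come from RefSeq (GRCm38.p6) with the seed in capitals; miR-140-5p and cel-miR-67 are given by their site motifs only. The mature forms lie at chr1:162217883-162217904 (plus strand) and chr9:21496498-21496519 (minus strand) for miR-199a-3p, and at chr17:17830232-17830253 (plus strand) for miR-99b-3p.
miR-199a-3p: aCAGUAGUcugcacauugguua
miR-99b-3p: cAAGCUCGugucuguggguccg

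A site was an 8mer (the complement of the seed followed by A) or a 7mer-m8 (the same without the A), read on the transcript strand in the longest annotated 3′ UTR of a gene (GENCODE M21, GRCm38/mm10). As 8mers, miR-140-5p has AACCACTA, miR-199a-3p has ACTACTGA, miR-99b-3p has CGAGCTTA and the control mimic has GGTTGTGA. The windows below show all 8mers and 7mer-m8s of the 5 genes in capitals with their flanks, all in the last exon. Ostm1 held a miR-140-5p 8mer at chr10:42701123-42701152 (plus strand, exon 6 of 6) and a miR-199a-3p 7mer-m8 at chr10:42700819-42700848, besides a miR-140-5p 7mer-m8 at chr10:42702201-42702230. Ctsl held a miR-199a-3p 8mer at chr13:64363483-64363512 (minus strand, exon 9 of 9), a miR-140-5p 7mer-m8 at chr13:64362948-64362977 and a cel-miR-67 7mer-m8 at chr13:64360292-64360321. Lipa held a miR-140-5p 7mer-m8 at chr19:34492704-34492733 and a cel-miR-67 7mer-m8 at chr19:34492642-34492671 (minus strand, exon 10 of 10). Atp6v0a1 held a cel-miR-67 8mer at chr11:101062472-101062501 (plus strand, exon 20 of 20), and Scarb2 held one at chr5:92441906-92441935 (minus strand, exon 12 of 12).
Ostm1, miR-140-5p: gtcccttttgaAACCACTAgttgattataa
Ostm1, miR-140-5p, nearer the UTR's end: ctgtgtgtacaAACCACTgcttttggctaa
Ostm1, miR-199a-3p: gcatatgaatgACTACTGgacacttctgat
Ctsl, miR-199a-3p: aggtgccttttACTACTGAgctatcttgcc
Ctsl, miR-140-5p: acagcgctgagAACCACTgttctagaaact
Ctsl, cel-miR-67: ctatgacacctGGTTGTGttgggattccat
Lipa, miR-140-5p: gtggagggacaAACCACTgatttgccagaa
Lipa, cel-miR-67: aagctaaagctGGTTGTGgtggcaagtggt
Atp6v0a1, cel-miR-67: tcttgcctgctGGTTGTGAtccctggatgc
Scarb2, cel-miR-67: attagtgccatGGTTGTGAatagcagtggt

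Across all members, 7 of 34 (20.6%) held a site of the mix and 5 (14.7%) held a cel-miR-67 site, against 17.1% and 9.46% of 20897 genes with a UTR. The 7 were Ostm1, Ctsl, Lipa, Clcn7, Atp6v0e, Atp6v1a and Atp6ap2, and the 5 were Atp6v0a1, Scarb2, Atp6v0e, Ctsl and Lipa, so Ctsl, Lipa and Atp6v0e carried both kinds. miR-99b-3p had a site in 0 members, against 1.76% of genes. A match is a description of letters and does not show that the site is used. The UTRs differ in length, from 1176 nt in Atp6ap2 to 4761 nt in Ctsl among these genes, and the median of all genes was 968 nt.

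**Figure D1:**
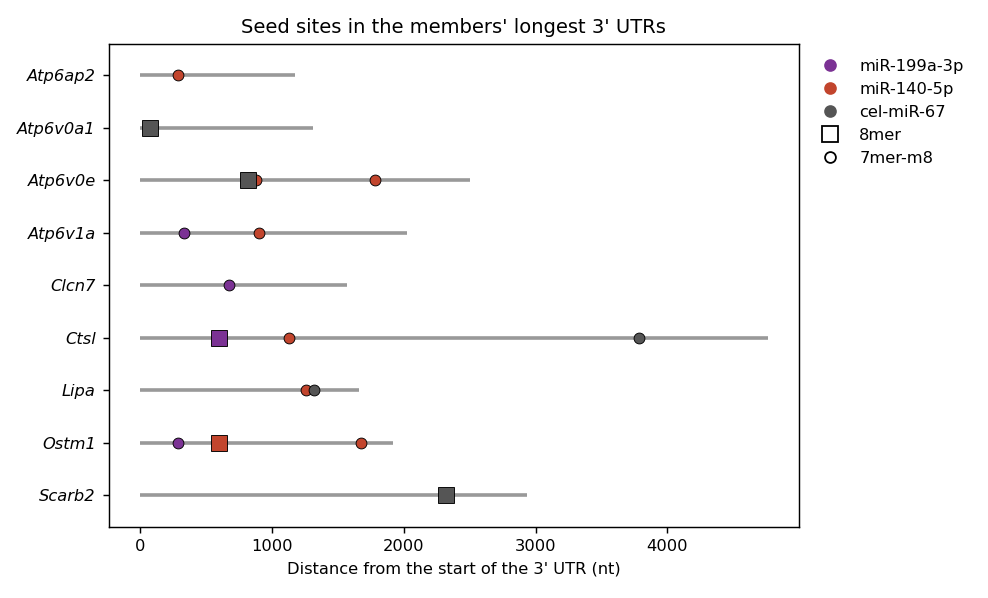
Positions of 8mer (squares) and 7mer-m8 (circles) seed sites along the longest annotated 3′ UTR of each member that held any, in nt from the start of the UTR (grey line: length of the UTR). Ostm1 holds 3 sites of the mix, Atp6v0a1 and Scarb2 hold cel-miR-67 sites alone, and Ctsl, Lipa and Atp6v0e hold sites of both.

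Per group, total counts lay between 20.9 and 23.6 M in Neuro-2A, 21.8 and 27.9 M in astrocytes and 18.5 and 25.6 M in BV-2. Among Neuro-2A libraries, number 1 of each arm stood apart from numbers 2 and 3. Same-numbered libraries deviated together, though numbers 2 and 3 also deviated with each other across arms. Neuro-2A values are therefore also given with the library number as a block and from numbers 2 and 3 only. As sums, defining markers were highest in the cell type of their label: neuron markers summed to 853 to 1334 TPM in Neuro-2A, astrocyte markers to 7295 to 9596 TPM in the astrocyte cultures and microglia and macrophage markers to 2443 to 2661 TPM in BV-2, where Gfap, Aqp4 and all 7 neuron markers were listed at 0. Single markers went the other way: under the control mimic Map2 was at 65.2 TPM in astrocytes and 13.1 TPM in Neuro-2A, C1qa at 169 TPM in astrocytes and 3.26 TPM in BV-2, and C1qb at 168 and 50.7 TPM. Neuron markers summed to 274 to 294 TPM in the astrocyte cultures, with Snap25 at 0. These cultures also held all 11 microglia and macrophage markers, summing to 722, 804 and 569 TPM in the mix libraries and 588 to 665 TPM in the control libraries. They further held all 7 oligodendrocyte lineage markers (839 to 925 TPM) and all 5 ependymal markers (926 to 1102 TPM). Some marker sums moved with the mix: astrocyte markers in the astrocyte cultures (7295 to 7908 TPM under the mix, 9082 to 9596 TPM under the control mimic), fibroblast and pericyte markers there (1221 to 1471 against 1666 to 1862 TPM, with Lum at 0 in both arms and Dcn at 0 in the control arm) and neuron markers in Neuro-2A (853 to 973 against 1049 to 1334 TPM, with Dcx at 0). Their part in the results below was not tested. In bulk RNA, fewer cells of a type and less RNA per cell cannot be told apart.

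Under the control mimic, the 34 members together took the largest share of RNA in BV-2 cells and the smallest in Neuro-2A. The 34 members summed to 18280 ± 814 TPM in BV-2, 12430 ± 69.5 TPM in astrocytes and 5978 ± 712 TPM in Neuro-2A (SD, n = 3; TPM, a level corrected for gene length and library size). BV-2 held the highest level for 23 members, astrocytes for 7 and Neuro-2A for 4. By role, BV-2 was highest for 6 of 7 proteases, 7 of 8 glycosidases and lipid hydrolases and all 5 V1 subunits, while astrocytes were highest for 6 of 8 membrane proteins and cofactors. Control levels differed for 30 members between astrocytes and Neuro-2A, 34 between BV-2 and Neuro-2A and 32 between BV-2 and astrocytes (edgeR's quasi-likelihood test, Benjamini-Hochberg adjusted p under 0.05). Of all 20308 genes tested, 87.3%, 79.0% and 86.9% differed in the same comparisons, so differing between cell types did not set the members apart. The order of the sums does not extend to lysosomal genes at large. Of 93 tested genes from other lysosomal lists, 40 were lower and 44 higher in BV-2 than in astrocytes by the same test. Among them, 18 of 32 other lysosomal enzymes were lower and 11 higher.

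The cathepsins spanned the widest range of control levels. Ctss, a protease of antigen-presenting cells, was listed at 0 in every Neuro-2A library, with at most 1 count. It reached 114.3, 131.3 and 123.8 TPM in astrocyte control libraries and 1252, 1231 and 1142 TPM in BV-2. Ctsz, a carboxypeptidase, averaged 3430 TPM in BV-2, 479 TPM in astrocytes and 310 TPM in Neuro-2A. The aspartic protease gene Ctsd was abundant everywhere, at 3370, 2740 and 856 TPM. Lipa ran from 5.68, 7.84 and 8.72 TPM in Neuro-2A through 63.6, 65.9 and 62.6 TPM in astrocytes to 257.9, 243 and 263.2 TPM in BV-2, a 34.4-fold ratio of the highest mean to the lowest.

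Among the 8 membrane proteins and cofactors, Lamp1, Lamp2 and Psap ran from astrocytes through BV-2 down to Neuro-2A, Clcn7 was highest in BV-2 and Mcoln1 in Neuro-2A. The other 3 ran from astrocytes through Neuro-2A down to BV-2. Laptm4a, a multi-span protein of late endosomes and lysosomes, averaged 1424 TPM in astrocytes, 469.1 TPM in Neuro-2A and 199.8 TPM in BV-2. Scarb2, the receptor that carries glucocerebrosidase to lysosomes, averaged 235, 124 and 32.7 TPM in that order. Ostm1 was at 31.9, 30.3 and 31.2 TPM in astrocytes, 29.3, 31.6 and 32.2 TPM in Neuro-2A and 10.7, 11.9 and 11.3 TPM in BV-2. BV-2 lay below both other cell types for these 3 genes, while the Ostm1 values of astrocytes and Neuro-2A overlapped and their difference missed the threshold (adjusted p = 0.126 in the edgeR fit of all libraries). Other neighbours in the order whose difference missed the threshold were Neuro-2A and astrocytes for Neu1, Naglu and Clcn7, and BV-2 and astrocytes for Atp6v0e and Atp6ap1.

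**Figure D2:**
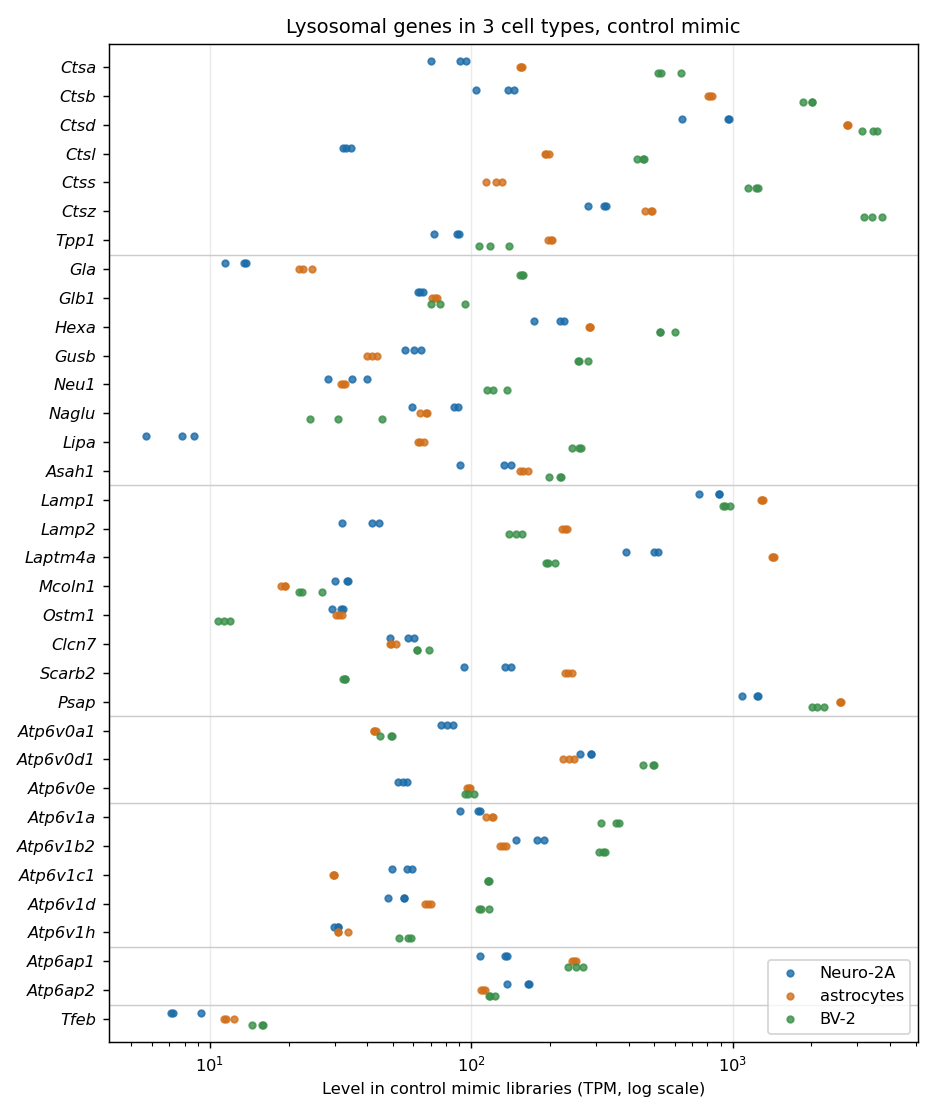
Level of each of the 34 genes in the control mimic libraries (TPM, log axis), 3 points per cell type, with roles divided by grey lines. Ctss has no Neuro-2A points because it is listed at 0 there; BV-2 points lie furthest right for 23 genes.

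Of the 34 members, 17 were called in at least 1 cell type under the mix, and Ostm1 had the lowest log2 fold change of the members in each. In Neuro-2A, 33 members were tested, and 2 were lower (Ostm1 and Ctsl), where 7.88% of all tested genes were lower. By the same test 0 were higher, where 5.01% of genes were. At an unadjusted p under 0.05, 2 members were lower and 1 higher (Atp6v1c1), where 15.0% and 12.5% of all tested genes were. DESeq2 called 2 members lower and 0 higher, and 1389 and 918 of all genes. In astrocytes, 6 of 34 were lower and 9 higher, against a background of 20.6% lower and 19.7% higher. By edgeR's unadjusted p under 0.05, 7 were lower (20.6%) and 11 higher (32.4%), where 23.8% and 23.9% of all tested genes were. DESeq2 called 7 members lower and 8 higher there, and 3043 and 2549 of all genes. In BV-2, 4 of 34 were lower and 1 higher, against 5.41% lower and 4.61% higher. On unscaled TPM with limma the split was 4 lower and 13 higher in astrocytes and 2 lower and 1 higher in BV-2. The median of all genes was then 0.055 in astrocytes and 0.053 in BV-2, against 0.008 and −0.002 in the edgeR fits. The share of all genes called by limma is not given here, so these counts do not set the members apart. Without BV-2 mix replicate 1, 2 or 3, 2 members were lower, and without BV-2 control replicate 1, 2 were higher, Tpp1 joining Scarb2. With a single BV-2 library left out, 434 to 2985 of all genes were called, against 1498 with every library kept. A single member, Ostm1, was called in all 3 cell types, 3 were called in 2 of them, 13 in 1 and 17 in 0. With the block in Neuro-2A and the same fits elsewhere, Ostm1 was again the member called in all 3, 8 were called in 2, 15 in 1 and 10 in 0. The same tallies over all genes are not given here.

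With the library number as a block, 9 members were lower and 5 higher in Neuro-2A, where 19.5% and 18.2% of all genes were. The block added Laptm4a (−0.24), Gla (−0.22), Neu1 (−0.19), Naglu (−0.15), Mcoln1 (−0.12), Clcn7 (−0.12) and Atp6v1a (−0.10) to the lower genes on the log2 scale. To the higher genes it added Scarb2 (0.25), Atp6v1c1 (0.22), Atp6v1d (0.16), Ctsz (0.14) and Atp6ap1 (0.13). In Neuro-2A numbers 2 and 3 only, 6 were lower and 3 higher, where 12.8% and 9.89% of all genes were. For Laptm4a the log2 fold change was −0.25 without the block and −0.24 with it, while its standard error was 0.134 and 0.031.

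Set against the rest, Ostm1 and Lipa stood at or near the ends of the range in several comparisons. The other 31 members tested in Neuro-2A ran from −0.62 (Ctsl) to 0.24 (Scarb2) on the log2 scale with a median of −0.01, while Ostm1 was at −1.03 and Lipa at 0.04. In astrocytes the other 32 ran from −0.59 (Ctsl) to 0.60 (Atp6v0a1) with a median of 0.03, while Ostm1 was at −1.51 and Lipa at 0.90. In BV-2 the other 32 ran from −0.26 (Atp6v1h) to 0.36 (Scarb2) with a median of −0.07, while Ostm1 was at −1.12 and Lipa at −0.35. The median size of a change over all members was 0.09, 0.09 and 0.08 in Neuro-2A, astrocytes and BV-2, against 0.15, 0.16 and 0.12 over all tested genes. The sets were not matched for expression level, so these sizes do not show that members responded less.

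**Figure D3:**
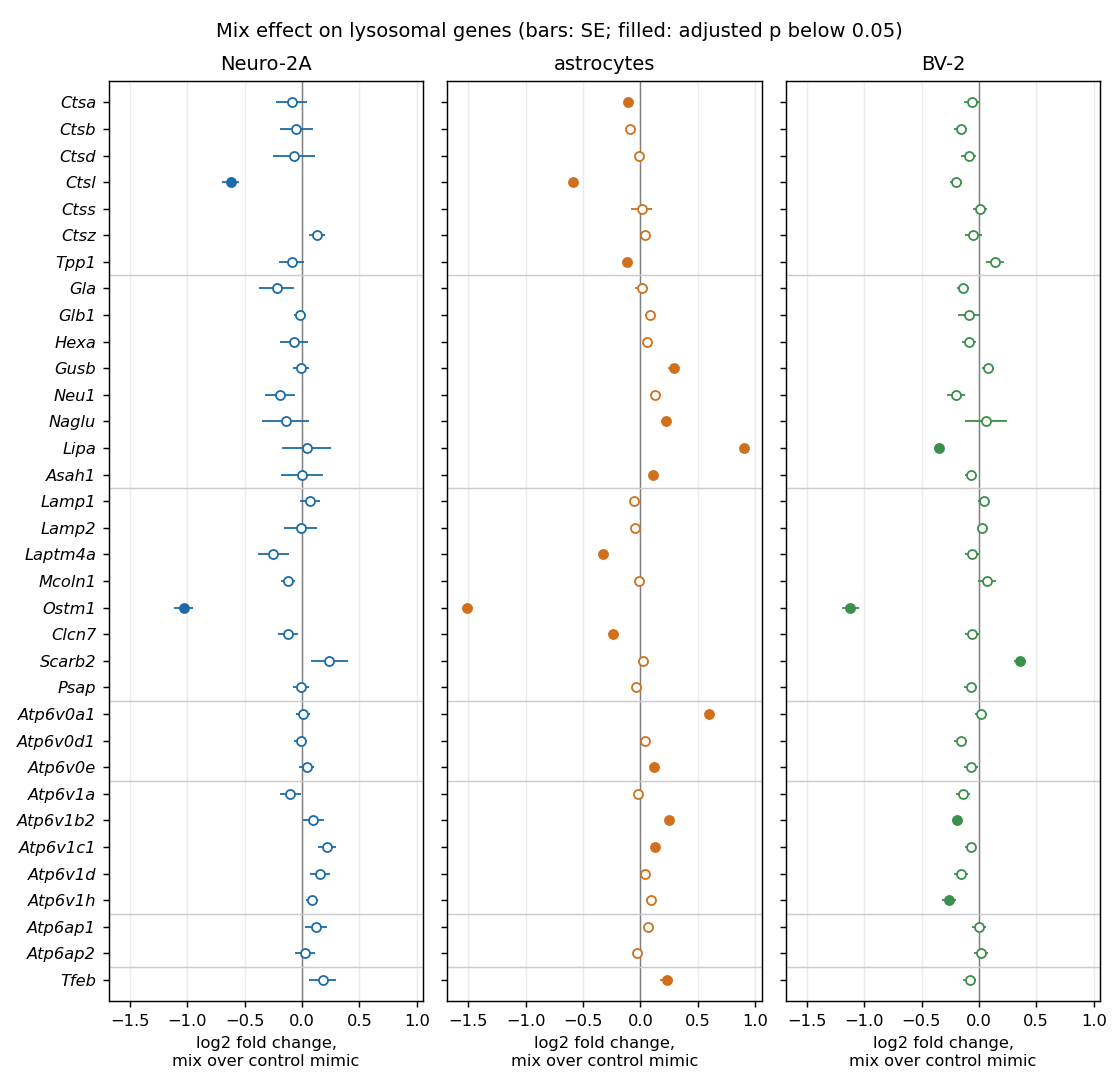
Log2 fold change of each member, mix over control mimic, in the 3 cell types (bars: SE; filled points: adjusted p under 0.05 by edgeR's quasi-likelihood test). Most points lie near 0; Ostm1 lies lowest in every panel, and Lipa lies highest in astrocytes and second lowest in BV-2.

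Ostm1, the partner subunit of the lysosomal chloride-proton exchanger (ENSMUSG00000038280, mm10 chr10:42583822-42702459, plus strand), was lower under the mix in every cell type. In Neuro-2A it was at 13.4, 15.3 and 16.3 TPM under the mix and 29.3, 31.6 and 32.2 TPM under the control mimic. In astrocytes it was at 12.3, 11.2 and 10.9 TPM against 31.9, 30.3 and 31.2 TPM. In BV-2 it was at 5.48, 5.57 and 5.28 TPM against 10.7, 11.9 and 11.3 TPM. Mix and control libraries did not overlap in any cell type, and the astrocyte levels under the mix overlapped those of BV-2 under the control mimic.

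The Ostm1 log2 fold changes were −1.03 ± 0.0817 in Neuro-2A (SE; adjusted p = 0.000564), −1.51 ± 0.0476 in astrocytes (adjusted p = 4.88e-10) and −1.12 ± 0.0763 in BV-2 (adjusted p = 9.45e-05) by edgeR. The call held in all 14 alternatives run in Neuro-2A and all 13 run in astrocytes and in BV-2. Among all tested genes, 0.371%, 0.0844% and 0.14% had a lower fold change. Clcn7, the exchanger itself, holds a miR-199a-3p 7mer-m8 and moved far less. It was at 44.0, 46.2 and 42.3 TPM under the mix in astrocytes against 49.4, 51.5 and 48.7 TPM (−0.24 ± 0.0398; adjusted p = 0.0004). In BV-2 it stood at −0.06 ± 0.0621 and in Neuro-2A at −0.12 ± 0.0883, neither past the threshold, though the block called the latter (adjusted p = 0.0271).

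The ratio of Ostm1 to Clcn7, both in TPM, followed from these values. It was 0.561 ± 0.0376 under the control mimic and 0.297 ± 0.0121 under the mix in Neuro-2A (SD, n = 3). In astrocytes it was 0.624 ± 0.0323 and 0.26 ± 0.0178, and in BV-2 0.176 ± 0.0187 and 0.0843 ± 0.00687. The BV-2 ratio under the control mimic thus lay below that of the other cell types under the mix.

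Lipa, the acid lipase (ENSMUSG00000024781, mm10 chr19:34492318-34527474, minus strand), moved in opposite directions in astrocytes and BV-2. In astrocytes it was at 127, 124.3 and 122.8 TPM under the mix and 63.6, 65.9 and 62.6 TPM under the control mimic. In BV-2 it was at 210.5, 210.4 and 207.1 TPM against 257.9, 243 and 263.2 TPM. In Neuro-2A it was at 5.55, 9.24 and 7.73 TPM against 5.68, 7.84 and 8.72 TPM. The arms were fully separate in the first pair of cell types and overlapped in the last, where number 1 was lowest in each arm.

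Lipa rose by 0.90 ± 0.0342 in astrocytes (adjusted p = 1.89e-09) and fell in BV-2 (−0.35 ± 0.0453; adjusted p = 0.00206) by edgeR, and both calls held in all 13 alternatives. The Neuro-2A value was 0.04 ± 0.216 (adjusted p = 0.925), the least precise of the members tested there. The microglia and macrophage marker sum of the astrocyte cultures overlapped between the arms, at 569 to 804 TPM under the mix and 588 to 665 TPM under the control mimic, and Ctss in the same cultures was at 131.4, 151.2 and 106.5 against 114.3, 131.3 and 123.8 TPM. Their part in the Lipa result was not tested. Against Asah1, the acid ceramidase, the Lipa ratio in TPM went from 0.403 ± 0.0177 to 0.695 ± 0.0175 in astrocytes and from 1.2 ± 0.0265 to 0.986 ± 0.026 in BV-2.

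**Figure D4:**
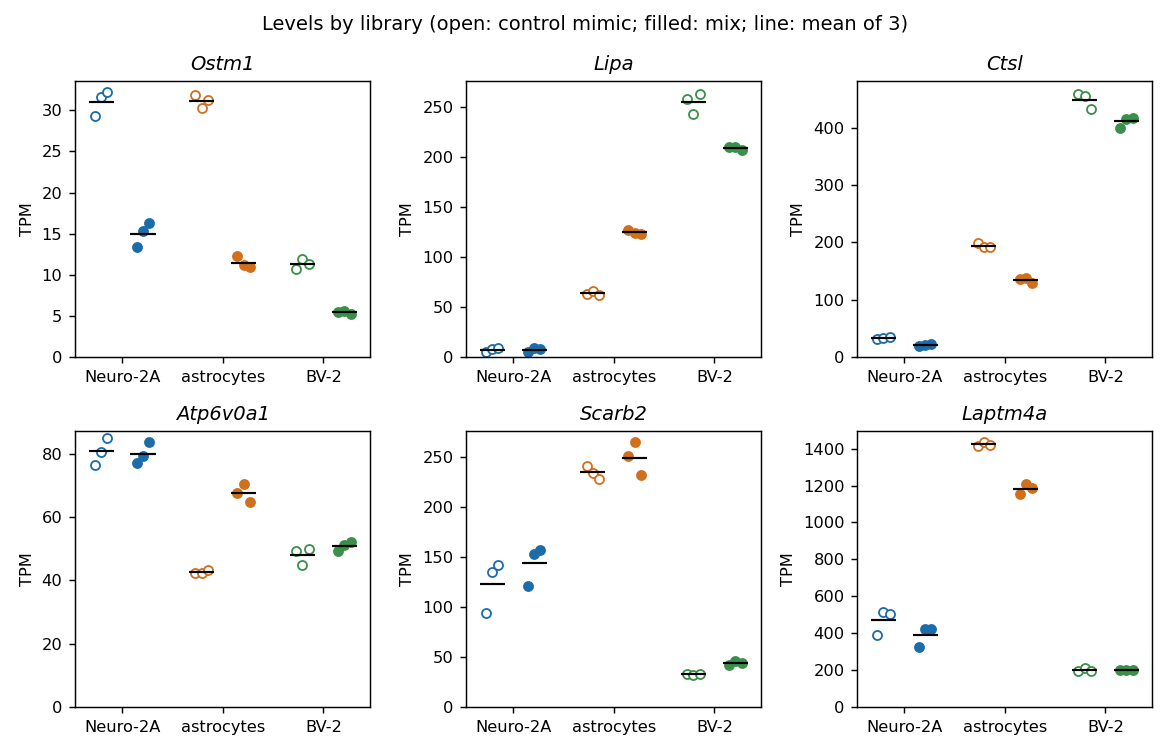
TPM of 6 members in every library (open: control mimic; filled: mix; line: mean of 3; each axis starts at 0). Ostm1 is lower under the mix in all 3 cell types, Lipa is higher in astrocytes and lower in BV-2, Atp6v0a1 is higher in astrocytes and Scarb2 is higher in BV-2.

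Among the member proteases, the cysteine cathepsin gene Ctsl fell in Neuro-2A and astrocytes, while the others stayed close to their control levels there. Outside the members, the cathepsin gene Ctsk fell in BV-2 (−0.70), as given further below. Ctsl (ENSMUSG00000021477) was at 19.1, 21.7 and 23.1 TPM under the mix in Neuro-2A against 32.2, 33.1 and 34.6 TPM. In astrocytes it was at 136.1, 137.2 and 129.5 TPM against 198.1, 191.5 and 192.6 TPM, and in BV-2 at 399.8, 415.7 and 416.3 TPM against 459, 454.9 and 431.5 TPM. Every mix library lay below every control library of its cell type. The falls were −0.62 ± 0.0759 in Neuro-2A (adjusted p = 0.00237) and −0.59 ± 0.0327 in astrocytes (adjusted p = 3.14e-08), and BV-2 stood at −0.20 ± 0.054 (adjusted p = 0.0518, under 0.05 in 5 of 13 alternatives, such as without BV-2 control replicate 2, 0.0198, or control replicate 3, 0.0392).

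The other member proteases moved by little. Ctsa, a carboxypeptidase that also stabilises galactosidase and sialidase, changed by −0.11 in astrocytes (adjusted p = 0.0127), a call lost without mix replicate 1 (0.0559). Tpp1, the tripeptidyl peptidase, changed by −0.12 there (adjusted p = 0.00679). Both calls were lost with limma on unscaled TPM and in the fit of all 18 libraries (0.544 and 0.421). Ctsb, a cysteine cathepsin, stood at −0.09 in astrocytes (adjusted p = 0.0551, and 0.00499 without mix replicate 2). Ctsd, Ctsz and Ctss passed the threshold in no cell type without the block, with values from −0.09 to 0.13 where tested. The Ctsl to Ctsb ratio in TPM was 0.237 ± 0.00853 under the control mimic and 0.168 ± 0.00617 under the mix in astrocytes, 0.262 ± 0.0414 and 0.173 ± 0.0102 in Neuro-2A, and 0.229 ± 0.00345 and 0.223 ± 0.00167 in BV-2.

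Of the glycosidases and lipid hydrolases, 4 of 8 were higher in astrocytes (Lipa, Gusb, Naglu and Asah1), where 19.7% of all genes were. Gusb, β-glucuronidase, was at 52.6, 56.3 and 51.1 TPM under the mix against 39.8, 41.7 and 43.6 TPM (0.29 ± 0.0459; adjusted p = 0.00028). Naglu, which trims heparan sulfate, was at 79.6, 79.1 and 82.2 TPM against 63.6, 67.7 and 67.0 TPM (0.22 ± 0.0396; adjusted p = 0.000818, and 0.431 in the fit of all 18 libraries). Neither pair of groups overlapped. Asah1 rose by 0.11 (adjusted p = 0.0255), a call lost without mix replicate 1 (0.0758) or 3 (0.0706) and without control replicate 2 (0.129) or 3 (0.147), and in the fit of all 18 libraries (0.562).

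The remaining hydrolases of the group did not pass in any cell type without the block. Neu1, the lysosomal sialidase, stood at 0.13 in astrocytes (adjusted p = 0.058, and 0.00955 without mix replicate 3), −0.19 in Neuro-2A and −0.20 in BV-2. Gla, the α-galactosidase, stood at −0.22, 0.01 and −0.14 in Neuro-2A, astrocytes and BV-2. Glb1 (β-galactosidase) and Hexa (the α chain of β-hexosaminidase) lay between −0.09 and 0.08 in all 3. The summed TPM of all 8 was 886.8 ± 1.84 under the mix and 741.8 ± 5.41 under the control mimic in astrocytes. With limma on unscaled TPM, Hexa (0.12), Glb1 (0.14) and Neu1 (0.19), and the pump's accessory subunit Atp6ap1 (0.14), were also higher there.

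Membrane proteins and cofactors fell more often than they rose in astrocytes, with 3 of 8 lower (Ostm1, Laptm4a and Clcn7), where 20.6% of all genes were. Laptm4a (ENSMUSG00000020585) was at 1152, 1209 and 1186 TPM under the mix in astrocytes against 1417, 1435 and 1420 TPM, without overlap (−0.33 ± 0.0309; adjusted p = 3.16e-06). In Neuro-2A it was at 327.4, 424.7 and 420.4 TPM against 389.1, 517.1 and 501.2 TPM. Each Neuro-2A mix library lay below the control library of its number, although the groups overlapped (−0.25 ± 0.134; adjusted p = 0.286, and 3.63e-05 with the block).

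Scarb2 (ENSMUSG00000029426) was the member that rose in BV-2, at 42.2, 46 and 43.8 TPM under the mix against 32.8, 32.2 and 32.9 TPM. The groups did not overlap (0.36 ± 0.0543; adjusted p = 0.00408, and 0.0704 in the fit of all 18 libraries). In Neuro-2A it was at 121.6, 153.2 and 156.8 TPM against 94.0, 134.7 and 141.9 TPM, higher in each pair of same-numbered libraries (0.24 ± 0.161; adjusted p = 0.395, and 0.000359 with the block). In astrocytes it stood at 0.02 ± 0.0434. Lamp1 and Lamp2, the main glycoproteins of the lysosomal membrane, lay between −0.06 and 0.07 in all cell types, and Psap, the precursor of the saposin cofactors, between −0.07 and −0.01. Mcoln1, the lysosomal cation channel, stood at −0.12, −0.01 and 0.07 in Neuro-2A, astrocytes and BV-2.

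Proton pump subunits were higher in astrocytes and lower in BV-2 where they passed the test. In astrocytes 4 of 10 were higher, where 19.7% of all genes were: Atp6v0a1, Atp6v1b2, Atp6v1c1 and Atp6v0e. Atp6v0a1, the membrane-spanning a subunit that is abundant in brain (ENSMUSG00000019302), was at 67.6, 70.5 and 64.7 TPM under the mix against 42.3, 42.5 and 43.2 TPM. The lowest mix library lay well above the highest control library, and the rise was 0.60 ± 0.0365 (adjusted p = 7.61e-08). In Neuro-2A it was at 77.0, 79.5 and 83.9 TPM against 76.6, 80.6 and 85.2 TPM, and in BV-2 at 49.4, 51.3 and 52.3 TPM against 49.3, 44.8 and 49.9 TPM, so those groups overlapped (0.01 ± 0.0591 and 0.02 ± 0.0518).

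The other astrocyte rises among pump subunits were smaller. The V1 subunit Atp6v1b2, part of the ATP-hydrolysing head, was at 166.8, 165.8 and 159.1 TPM under the mix against 135.7, 132.4 and 128.4 TPM (0.25 ± 0.0332; adjusted p = 7.09e-05). Atp6v1c1, which holds the head to its stator, rose by 0.13 (adjusted p = 0.0132), a call lost without mix replicate 1 (0.0533) or control replicate 2 (0.0632) and in the fit of all 18 libraries (0.124). Atp6v0e, a small V0 subunit with a cel-miR-67 8mer and miR-140-5p 7mers, rose by 0.12 (adjusted p = 0.0105), a call lost without control replicate 2 (0.0693) and in the fit of all 18 libraries (0.11). Atp6v1h stood at 0.09 (adjusted p = 0.134) and passed without control replicate 1 (0.0245).

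In BV-2 the V1 subunits among the members stood from −0.26 to −0.07, and 2 of 5 were lower, where 5.41% of all genes were. Atp6v1h, a regulatory subunit of V1, was at 50.9, 49.5 and 48.3 TPM under the mix against 53.1, 57.4 and 58.8 TPM (−0.26 ± 0.0594; adjusted p = 0.0282). Atp6v1b2 was at 285.5, 291.7 and 296.0 TPM against 323.2, 308.8 and 317.7 TPM (−0.19 ± 0.0457; adjusted p = 0.0322). The groups did not overlap for either gene. Both calls were lost without any single BV-2 mix replicate (adjusted p = 0.111 to 0.138 for Atp6v1h and 0.127 to 0.192 for Atp6v1b2) and without control replicate 3 (0.0911 and 0.0569). Atp6v1a also passed without control replicate 2 (−0.18; adjusted p = 0.0106).

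In Neuro-2A the V1 subunits among the members ran from −0.10 (Atp6v1a, the catalytic subunit) to 0.22 (Atp6v1c1). Atp6v1c1 was at 59.5, 64.9 and 65.6 TPM under the mix against 49.6, 57.0 and 59.1 TPM, just without overlap (adjusted p = 0.114, and 0.000426 with the block). Atp6v1d, of the rotor stalk, was at 0.16 ± 0.0889 (adjusted p = 0.285, and 0.0036 with the block). The accessory subunits Atp6ap1 and Atp6ap2 lay between −0.03 and 0.12 in all cell types, and Atp6v0d1 of V0 between −0.16 and 0.04.

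Tfeb was expressed at a low level throughout and rose in astrocytes. It was at 13.9, 14.8 and 14.4 TPM under the mix in astrocytes against 11.3, 12.4 and 11.5 TPM, without overlap (0.23 ± 0.0556; adjusted p = 0.00559, and under 0.05 in all 13 alternatives). In Neuro-2A it stood at 0.18 ± 0.116 and in BV-2 at −0.08 ± 0.0585, neither past the threshold.

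RefSeq promoters (GRCm38.p6, 250 bases before to 50 after the annotated start) were at hand for 29 of the 34 members. TCACGTGA, an 8-letter palindrome that reads the same on both strands, was found in 8 of the 29 (27.6%). It was found in 10.7% of 75 genes from the other lysosomal lists and in 1.12% of all 27025 genes with a RefSeq promoter. Its core CACGTG, contained in it, was found in 12 members (41.4%), against 24.0% and 8.09% in the same sets. The 8 were Ctsa, Ctsd, Gla, Mcoln1, Clcn7, Atp6v0d1, Atp6v0e and Atp6v1a. Windows of 4 of them are shown because they come from a protease, a glycosidase, the exchanger and the pump, with the palindrome in capitals: Ctsd at chr7:142387908-142387937 (minus strand), Gla at chrX:134601215-134601244 (minus strand), Clcn7 at chr17:25133386-25133415 (plus strand) and Atp6v0d1 at chr8:105566050-105566079 (minus strand).
Ctsd: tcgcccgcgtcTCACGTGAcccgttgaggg
Gla: taagcgattgaTCACGTGAgcatctacgtc
Clcn7: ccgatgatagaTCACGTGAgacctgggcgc
Atp6v0d1: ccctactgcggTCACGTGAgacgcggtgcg

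In astrocytes, where 20.6% of all genes were lower and 19.7% higher, 2 of the 8 with the palindrome were lower (Ctsa and Clcn7) and 1 higher (Atp6v0e), with a median of −0.01, while the 21 without it had 4 lower and 5 higher and a median of 0.04. The calls of Ctsa and Atp6v0e were lost in the fit of all 18 libraries (adjusted p = 0.544 and 0.11). In Neuro-2A the 8 ran from −0.22 to 0.04 and in BV-2 from −0.16 to 0.07. Ostm1, Lipa, Ctsl, Atp6v0a1 and Scarb2 lie outside the 8.

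Calls are set here beside the seed sites, with the shares of all tested genes. Any part of the sites in the changes of the members was not tested. In Neuro-2A, 2 of 7 members with a site of the mix were lower, as were 23.7% of all tested genes with such a site and 6.17% of those without. In astrocytes, 3 of 7 were lower (Ostm1, Ctsl and Clcn7), against 41.2% and 19.2% of genes. In BV-2, 2 of 7 were lower (Ostm1 and Lipa), against 13.6% and 4.95%. Of the 5 members with a cel-miR-67 site, 3 were higher in astrocytes (Lipa, Atp6v0a1 and Atp6v0e), against 40.0% of tested genes with such a site and 20.6% without. In BV-2, 1 of the 5 was higher (Scarb2), against 14.6% and 4.37%. In Neuro-2A, 1 of the 5 was lower (Ctsl) and none was higher, where 16.2% of tested genes with such a site and 4.79% without were higher. Of the 7 members with a site of the mix, 2 were higher in astrocytes (Lipa and Atp6v0e, 28.6%), against 15.1% of tested genes with such a site. Lipa, which holds both kinds, rose in astrocytes and fell in BV-2. Ctsl, which holds both kinds too, fell. Laptm4a, Gusb, Naglu, Atp6v1b2, Ctsa, Tpp1, Asah1, Atp6v1c1 and Tfeb were called in astrocytes without an 8mer or 7mer-m8 of either kind. Atp6v1h and Atp6v1b2 were called in BV-2 likewise.

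The mix effect itself differed between cell types for a few members, tested as interactions in an edgeR fit of all 18 libraries. Astrocytes and Neuro-2A differed for 4 members, where 4.67% of all genes did: Atp6v0a1 (0.60 ± 0.0743; adjusted p = 0.000189), Lipa (0.86 ± 0.174; 0.00673), Ostm1 (−0.47 ± 0.103; 0.011) and Gusb (0.30 ± 0.085; 0.0459). Astrocytes and BV-2 differed for 6, where 7.05% of genes did: Lipa (1.26 ± 0.133; adjusted p = 1.58e-05), Atp6v0a1 (0.60 ± 0.075; 7.27e-05), Ctsl (−0.38 ± 0.0823; 0.00676), Atp6v1b2 (0.45 ± 0.0967; 0.00678), Atp6v1h (0.35 ± 0.0784; 0.00849) and Ostm1 (−0.37 ± 0.11; 0.0475). Positive values mean a higher log2 fold change in astrocytes. Ostm1 thus fell further in astrocytes than in Neuro-2A in all 19 alternatives, while its difference from BV-2 was lost in each fit without an astrocyte replicate (adjusted p from 0.0526 to 0.12) and in 5 of 6 fits without a BV-2 replicate. Gusb was lost in 12 of 19 alternatives, among them Neuro-2A numbers 2 and 3 only (0.0699).

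Neuro-2A and BV-2 differed for 2 members, where 3.51% of all genes did: Ctsl (−0.42 ± 0.0853; adjusted p = 0.0111) and Atp6v1h (0.35 ± 0.0784; adjusted p = 0.0175, and 0.0575 without BV-2 mix replicate 3). With the block, and likewise in Neuro-2A numbers 2 and 3 only, 6 members differed, where 8.03% and 3.13% of all genes did. In both fits the added members were Lipa, Atp6v1b2, Atp6v1c1 and Atp6v1d, each higher in Neuro-2A relative to BV-2 (0.40, 0.30, 0.30 and 0.33 with the block). Without Neuro-2A mix replicate 1, 5 differed, without Neuro-2A control replicate 3, 4 did, and without BV-2 mix replicate 3, 1 did. With a single library left out, 348 to 1061 of all genes differed, against 713 with every library kept. For Ostm1 the difference was 0.10 ± 0.108 (adjusted p = 0.768).

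Lysosomal genes moved together between Neuro-2A libraries of the same arm. Of the 33 members above the TPM floor, 32 were lowest in number 1 of the control arm (97.0%) and 31 in number 1 of the mix arm (93.9%). Of all genes above 5 TPM, 39.8% and 41.4% were lowest in number 1. The median member stood at −0.249 and −0.226 on the log2 scale relative to the mean of numbers 2 and 3 of its arm, against 0.00667 and −0.000834 for all genes. Ctsd, for example, was at 637.3, 968.5 and 961.8 TPM in control numbers 1 to 3 and at 632.6, 883.9 and 894.5 TPM in the mix. Gusb went the other way in both arms, at 64.1, 55.9 and 60.5 TPM in the control and 61.4, 54.9 and 60.8 TPM in the mix. These numbers do not bear on the mix, since they compare libraries within an arm. The neuron marker sum was highest in number 1 of each arm (1330 and 973 TPM), as was the fibroblast and pericyte sum (57.2 and 40.4 TPM), and their part in the lower members was not tested.

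**Figure D5:**
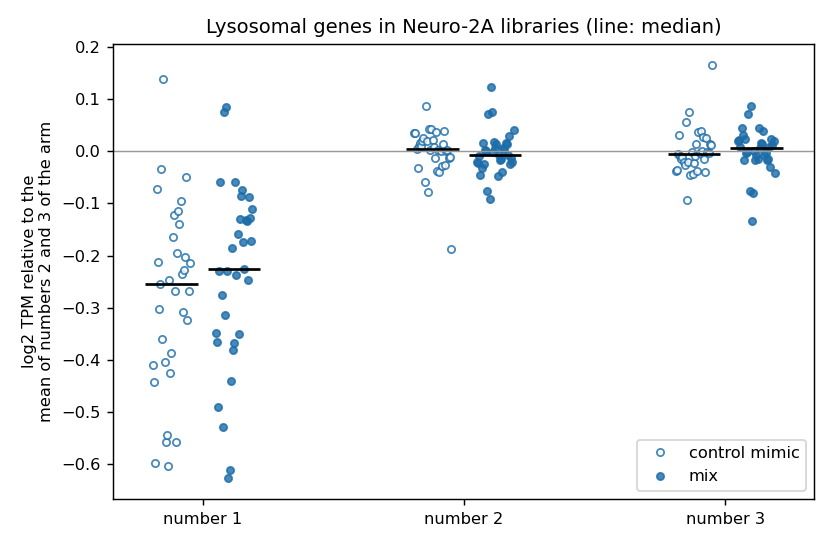
Each point is a lysosomal gene in a Neuro-2A library, as log2 TPM relative to the mean of numbers 2 and 3 of the same arm (open: control mimic; filled: mix; line: median; Ctss left out because it is listed at 0). In number 1 of both arms all but a few of the 33 points lie below 0.

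Another 95 genes from lists of lysosomal enzymes, membrane proteins, pump subunits, delivery genes and TFEB regulators were counted in the same way. In Neuro-2A 9 of 86 tested were lower and 6 higher, in astrocytes 16 of 91 were lower and 22 higher, and in BV-2 10 of 88 were lower and 2 higher, where 7.88% and 5.01%, 20.6% and 19.7%, and 5.41% and 4.61% of all genes were. Ywhag, a 14-3-3 protein that can retain phosphorylated TFEB in the cytosol, was lower in all 3 cell types (−0.94 ± 0.0844, −1.10 ± 0.0313 and −0.76 ± 0.0482 in Neuro-2A, astrocytes and BV-2). In astrocytes its level was 108 ± 2.74 TPM under the mix and 221 ± 2.95 TPM under the control mimic (SD, n = 3; edgeR adjusted p = 3.04e-10). Mtor, the kinase that phosphorylates TFEB, changed by −0.27 and Rragd, a GTPase that recruits it to lysosomes, by 0.29, both in astrocytes. Rragc, of the same GTPase family, changed by −0.22 in BV-2.

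Among other enzymes, Ctsk, an osteoclast and macrophage cathepsin, was lower in BV-2 (−0.70 ± 0.0546; adjusted p = 0.000201), from 2050 ± 86.7 to 1320 ± 23.5 TPM. Smpd1, acid sphingomyelinase, was higher in Neuro-2A (0.41) and astrocytes (0.37), and Galc, the galactocerebrosidase, was lower in astrocytes (−0.55). Scpep1, a serine carboxypeptidase, was higher in astrocytes (0.32) and BV-2 (0.24). The β-mannosidase gene Manba was lower in Neuro-2A (−0.43) and BV-2 (−0.24), and Lgmn, the asparaginyl endopeptidase legumain, was lower in Neuro-2A (−0.57 ± 0.141).

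Among membrane proteins, the cation channel gene Tpcn1 was lower in Neuro-2A (−1.04 ± 0.0813; adjusted p = 0.000564) and astrocytes (−0.52 ± 0.0377; adjusted p = 3.24e-07). Lamtor1, the anchor of the nutrient-sensing complex, was lower in astrocytes (−0.31) and BV-2 (−0.45). The cholesterol exporter gene Npc1 was lower in BV-2 (−0.24), and the amino acid transporter gene Slc36a1 was lower in Neuro-2A (−0.37). Among other pump subunits, the macrophage and osteoclast a subunit Tcirg1 was lower in astrocytes (−0.36 ± 0.0425; adjusted p = 2.35e-05), from 161 ± 8.38 to 131 ± 4.62 TPM, while its paralogue Atp6v0a1 rose there. Atp6v0c, of the proton-carrying ring (0.15), and Atp6v1g2, of the stator (0.24), were higher in astrocytes. Atp6v1f was higher in Neuro-2A (0.26) and Atp6v0d2 was lower in BV-2 (−0.54).

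Of 17 genes that deliver enzymes to lysosomes, 4 were lower and 7 higher in astrocytes, where 20.6% and 19.7% of all genes were. The sorting adaptors Gga2 (0.54) and Ap1g1 (0.45) and the retromer subunit Vps29 (0.32) were higher there. In Neuro-2A the sorting receptor Sort1 (−0.43) and the adaptor Gga3 (−0.37) were lower, and Sumf1, which activates sulfatases, was higher (0.46). In BV-2 Gga3 was lower (−0.23; adjusted p = 0.042) and Sumf1 higher (0.20; adjusted p = 0.0398).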

How the data were processed

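Poly(A) RNA of 18 libraries was sequenced from directional libraries, as the labels' protocols state. The submitters' processing notes list STAR 2.7.10b, Trimmomatic 0.39 and the build mm10; which tool counted reads is not given in the sources used here. Expected counts were deposited by the authors without normalization, per the file headers, beside log2 TPM, in which a TPM of 1 or less was listed as 0. Counts were rounded here, genes kept by filterByExpr (minimum count 10), scaled by TMM and tested with edgeR 4.0.16 in R 4.3.3 by the quasi-likelihood test, with Benjamini-Hochberg adjustment over all tested genes and a threshold of 0.05. Mix and control libraries of a cell type, 6 in all, were compared in a fit of their own; interactions and control levels used 1 fit of all 18. The tests were checked on simulated counts with a fixed spread and no effect of library number. That spread lay below edgeR's coefficient of variation in Neuro-2A (8.64%) and BV-2 (6.92%), so the check gives no error rates for those cells. All 34 members and, of each other list, up to 3 genes per cell type with the smallest adjusted p among those past the threshold and a mean of at least 5 TPM in the higher group are named, except 1 that is not reported here. Members, lists and tests were chosen with earlier results of these data known. Alternatives were RLE scaling, DESeq2 1.42.0, no filter, limma 3.58.1 on log2(TPM + 1) and log2(TPM + 0.1), each library left out, the library number as a block, 1 fit of all 18 libraries and, chosen after seeing the data, Neuro-2A numbers 2 and 3 only. Deviations of same-numbered mix and control libraries from their group means correlated at 0.587, 0.394 and 0.262 over genes in Neuro-2A. There, number 1 correlated with numbers 2 and 3 of the other arm at −0.464 to −0.304. Mix number 2 correlated with control number 3 at 0.245, and mix number 3 with control number 2 at 0.169. Numbers 2 and 3 were thus poorly told apart. The titles' numbers were taken to pair the Neuro-2A libraries, but not those of astrocytes (0.115, 0.0746 and 0.108) or BV-2 (0.00782, 0.128 and −0.00531). In astrocytes, differently numbered libraries correlated lower, at −0.109 to 0.000489. With the block, edgeR's coefficient of variation between astrocyte libraries went from 3.52% to 2.02%. File headers also give a number shared by a mix and a control library in every cell type, without its meaning. Whether astrocyte libraries are paired is thus not known, and the main fits used no block. Identifiers of 53237 genes (99.8%) were found in GENCODE M21, whose longest 3′ UTR of at least 20 nt per protein-coding gene was searched for sites.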

Additional observations from a re-analysis of the deposited data

Results flagged for a closer look

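The mix effect of 12 pairs of a member and 2 cell types differed by the interaction test of edgeR in a fit of all 18 libraries. Between astrocytes and Neuro-2A these were Lipa (0.86), Atp6v0a1 (0.60), Gusb (0.30) and Ostm1 (−0.47), as differences of log2 fold changes, astrocytes minus Neuro-2A. Between astrocytes and BV-2 they were Lipa (1.26), Atp6v0a1 (0.60), Atp6v1b2 (0.45), Atp6v1h (0.35), Ostm1 (−0.37) and Ctsl (−0.38), astrocytes minus BV-2. Between Neuro-2A and BV-2 they were Atp6v1h (0.35) and Ctsl (−0.42), Neuro-2A minus BV-2. Lipa and Atp6v1b2 passed the test in opposite directions in astrocytes and BV-2, higher under the mix in the former and lower in the latter.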

How the results depend on the processing

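No member's called change turned its direction under any alternative run. In Neuro-2A 2 lower and 0 higher members became 9 and 5 with the replicate block, 6 and 3 in numbers 2 and 3 only, and 2 and 1 in the fit of all 18 libraries. In astrocytes 6 lower and 9 higher members became 4 and 5 in the fit of all 18 libraries (11% and 11.3% of all genes), where the spread is shared with the other cell types. In BV-2 4 lower members became 2 with limma on log2(TPM + 1) and 2 on log2(TPM + 0.1), and 1 higher became 0 in the fit of all 18 libraries. Of the mix effects that differ between cell types, 6 between astrocytes and BV-2 became 15 with the replicate block (13% of all genes). Between Neuro-2A and BV-2, 2 became 5 with DESeq2, 6 with the block and 6 in Neuro-2A numbers 2 and 3 only. For DESeq2 the share of all genes is not given here. The cause of these shifts was not tested. With single libraries left out, lower and higher members ranged over 2 to 2 and 0 to 0 in Neuro-2A, 5 to 7 and 6 to 10 in astrocytes and 2 to 6 and 1 to 2 in BV-2. All genes called in the same fits ranged over 870 to 2268, 5773 to 6775 and 434 to 2985. Differing effects ranged over 3 to 4 (astrocytes and Neuro-2A), 5 to 6 (astrocytes and BV-2) and 1 to 5 (Neuro-2A and BV-2). Over all genes they ranged over 545 to 1013, 907 to 1807 and 348 to 1061. Differing control levels ranged over 29 to 30 (astrocytes and Neuro-2A), 33 to 34 (BV-2 and Neuro-2A) and 30 to 32 (BV-2 and astrocytes). Over all genes these were 17509 to 17678, 15836 to 15893 and 17410 to 17553. The numbers were not taken to pair the astrocyte or BV-2 libraries, though a pairing of the astrocyte libraries is not excluded. With the block, 8 members were lower and 12 higher in astrocytes (23.4% and 22.8% of all genes). In BV-2 the block gave 3 lower and 1 higher (5.25% and 4.73%). On unscaled TPM the median of all genes moved from 0.008 to 0.055 in astrocytes and from −0.002 to 0.053 in BV-2. With 7mer-A1 sites added, 9 members held a site of the mix and 6 a cel-miR-67 site, against 26.7% and 15.7% of genes. Precision was lowest for Lipa in Neuro-2A (SE 0.216) among members tested against the control mimic there, and Ctss, with at most 1 count, could not be tested in Neuro-2A.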
